A study of Mus musculus with 24 samples.

Results

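The 10 genes described here handle iron in macrophages: Slc40a1, the gene of ferroportin, exports it, Hmox1 releases it from heme, Fth1 and Ftl1 encode the subunits of ferritin that store it, Tfrc, Slc11a1, Slc11a2, Steap3 and Steap4 serve its uptake, transport and reduction, and Ireb2 encodes an iron regulatory protein. They were chosen by gene name, with the 24 h genotype difference of Slc40a1 already known, and every probe annotated to them with a detection p below 0.01 on at least 3 of 24 arrays was kept. This left 19 of 24 probes and all 10 genes, out of 8875 genes tested in the series. The 5 probes left out, 1 of Slc40a1, 3 of Steap3 and 1 of Steap4, were detected on 0 arrays, with a lowest detection p of 0.0107, and the dimmest probes kept were 1 of Ftl1 on 3 arrays and 1 of Slc11a2 on 5. Each gene is given by its brightest tested probe, and the other tested probes follow where a gene has them.

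Bone marrow-derived macrophages were grown from adult female C57bl/6J mice, in medium with L929 conditioned medium, and were activated by LPS given together with 10 ng/ml interferon-γ. The Gch1fl/flTie2cre group came from animals 1, 4 and 5, in which a Tie2-driven Cre removes the floxed Gch1 allele in blood-forming and endothelial cells, and the wild-type group from animals 2, 3 and 6, which carry the floxed allele without Cre. RNA was taken at 0, 2, 8 and 24 h from each animal, which gives 8 groups of 3 arrays. No unstimulated culture of a later time is among the arrays used here, so that time in culture and stimulation cannot be told apart within a genotype.

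Macrophages recycle most of the iron of the body: they take up red cells, open the heme ring with heme oxygenase, hold the iron in ferritin and pass it to the blood through ferroportin. During infection, activated macrophages keep iron back, and the hormone hepcidin removes ferroportin from the cell surface. Iron regulatory proteins bind iron-responsive elements in the messages of ferritin, ferroportin and the transferrin receptor, which acts on protein synthesis and message stability. The arrays read message only.

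Gch1, which encodes the first enzyme of tetrahydrobiopterin synthesis and is the targeted gene, was lower in Gch1fl/flTie2cre macrophages at every time. On normalised log2 intensity, where a step of 1 is a doubling, its brighter probe read 11.24, 11.43 and 11.27 at 0 h in Gch1fl/flTie2cre, against 13.95, 13.86 and 13.80 in wild-type, a difference of -2.55 ± 0.32 (SE, limma, adjusted p = 6.1e-04). It still read 10.43 or more on every Gch1fl/flTie2cre array, and whether the probe lies in the deleted part was not determined here. The arrays detected 27.0 to 33.3% of probes each. Of the macrophage markers, 7 of 8 were on the array and all 7 were detected on all 24 arrays. The 4 erythroid markers on the array (Hba-a1, Alas2, Epor and Klf1) and the 3 lymphocyte markers were detected on none. Of 5 fibroblast markers 4 were detected on none, and Dcn was called higher at 8 and 24 h than at 0 h in both genotypes. Of 5 endothelial markers Vwf was detected on all 24 arrays, and Cdh5 and Tek on none. In bulk RNA, fewer cells of a type and less RNA per cell cannot be told apart. Animals 5 and 6 stood apart from the other animals at each time, across genotypes: after the mean of each group was taken off, their arrays correlated at 0.73 to 0.81. Where a call of the brightest probe of one of the 10 genes changes without these 2 animals, it is given with and without them. The 24 h changes of Slc40a1 are given with no test.

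**Figure D1:**
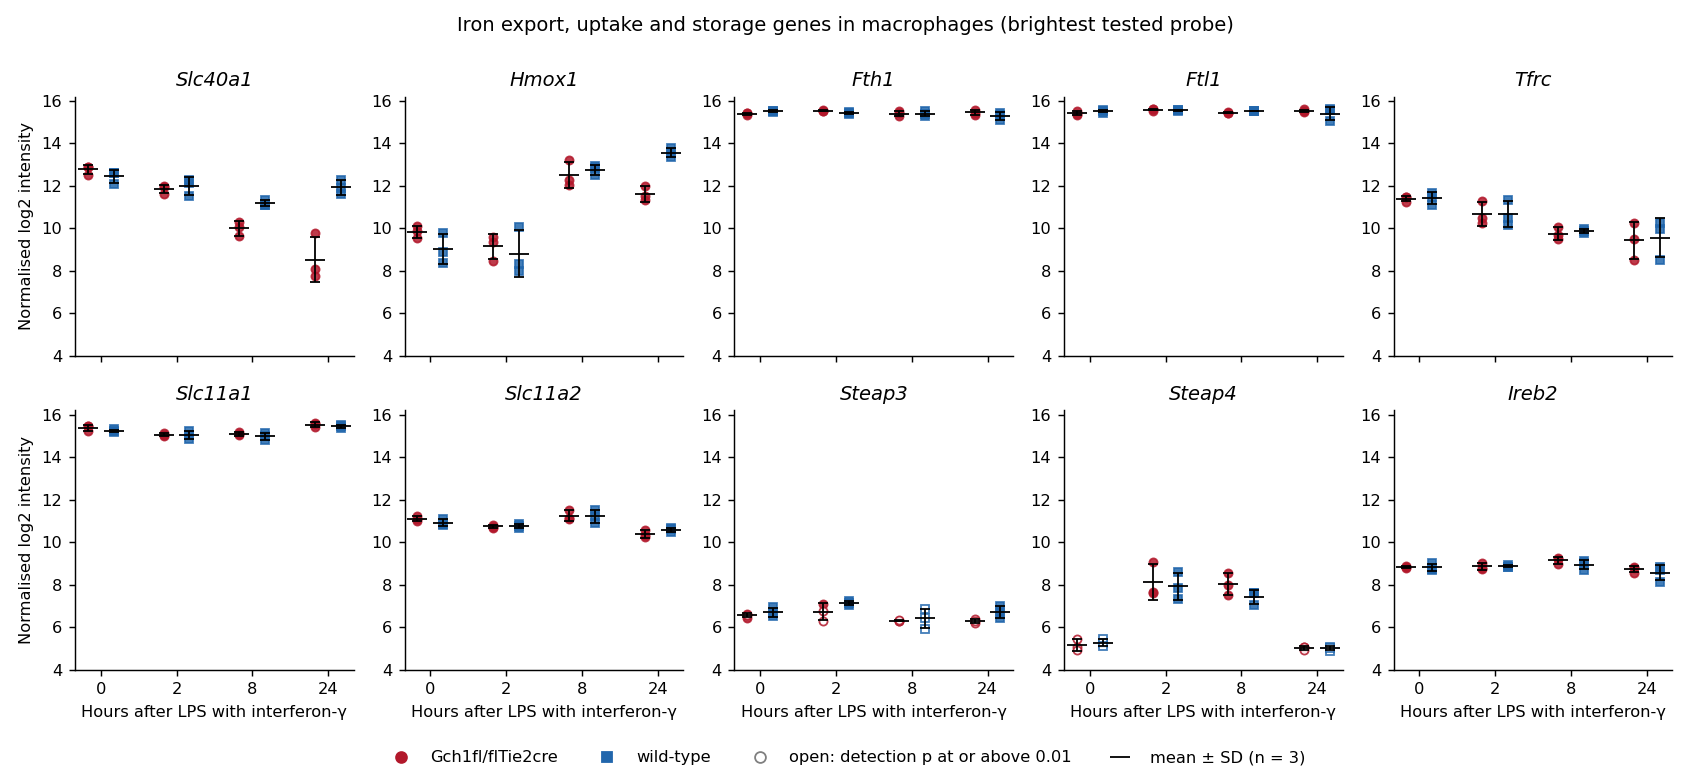
Normalised log2 intensity (y) of the 10 iron genes by hours after LPS with interferon-γ (x), with Gch1fl/flTie2cre arrays to the left of wild-type arrays at each time, open symbols for arrays where the probe was not detected, and bars for mean ± SD of 3 arrays. The groups did not overlap for Fth1 at 0 and 2 h, beside 7.46% and 7.53% of all genes. At 8 h they did not for Slc40a1 and Ftl1, beside 9.79%. At 24 h they did not for Hmox1 and Steap3 besides Slc40a1, beside 11.8%. The 24 h difference of Slc40a1 was known when the genes were chosen. Tfrc fell in both genotypes, and Fth1, Ftl1 and Slc11a1 lay between 14.79 and 15.62 on all arrays.

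Slc40a1 started at overlapping levels in both genotypes and then parted. In Gch1fl/flTie2cre macrophages it read 12.52, 12.89 and 12.91 before stimulation, 11.63, 11.94 and 12.01 after 2 h, 9.63, 10.09 and 10.31 after 8 h, and 7.77, 8.08 and 9.77 after 24 h. In wild-type macrophages it read 12.10, 12.62 and 12.61 before stimulation, 11.52, 12.14 and 12.30 after 2 h, 11.12, 11.36 and 11.10 after 8 h, and 11.61, 12.27 and 11.90 after 24 h. The genotypes overlapped at 0 and 2 h, and at 8 and 24 h every Gch1fl/flTie2cre array lay below every wild-type array. At 8 h the groups did not overlap for 9.79% of all genes. Animal 5 was the highest of the 3 Gch1fl/flTie2cre animals at 24 h.

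At 2 h against 0 h Slc40a1 differed by -0.92 ± 0.32 in Gch1fl/flTie2cre (adjusted p = 0.0536) and by -0.46 ± 0.32 in wild-type (adjusted p = 0.386), and the first was called without animal 5 (-0.92, adjusted p = 0.0248), without animals 5 and 6 (-0.92, adjusted p = 0.013), on the authors' deposited values (-0.81, adjusted p = 0.0347) and with quantile normalisation without background correction (-0.90, adjusted p = 0.016). Within Gch1fl/flTie2cre macrophages it fell at 8 h against 0 h by 2.77 ± 0.32 on the log2 scale, a 6.80-fold fall (limma, adjusted p = 2.1e-06). Within wild-type it fell by 1.25 ± 0.32, or 2.38-fold (adjusted p = 0.0052), and without animal 3 or animal 6 that call was lost (adjusted p = 0.0503 and 0.0566). The difference of these responses at 8 h was -1.51 ± 0.45 and did not pass (adjusted p = 1.00). The genotype difference at 8 h itself was -1.19 ± 0.34, with an interval of -1.90 to -0.47 and an adjusted p of 0.63. Without animals 5 and 6 it was -1.38 ± 0.26 and passed (adjusted p = 0.0465).

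At 24 h the means were 8.54 ± 1.08 in Gch1fl/flTie2cre and 11.93 ± 0.33 in wild-type (SD, n = 3 each), a difference of -3.39 ± 0.34. This value was known when the genes were chosen and is given as a description with no test. So are the 24 h changes of Slc40a1 within each genotype, which use the same arrays. Against 0 h, Gch1fl/flTie2cre macrophages were lower by 4.24 ± 0.32 log2 units at 24 h, an 18.8-fold difference, and against 8 h by 1.47 ± 0.32. Wild-type macrophages were at -0.52 ± 0.32 against 0 h and at +0.73 ± 0.32 against 8 h, and the second was 0.70 without animals 5 and 6. From 8 to 24 h each Gch1fl/flTie2cre animal moved down, by 1.86, 2.01 and 0.54, and each wild-type animal moved up, by 0.49, 0.91 and 0.80.

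Slc40a1 lies at chr1:45908070-45926532 on GRCm38.p6. Its second probe was detected on no array, with a lowest detection p of 0.428, and gave no second reading.

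Hmox1, at chr8:75093618-75100593, encodes the inducible enzyme that splits heme into iron, carbon monoxide and biliverdin. It rose in both genotypes by 8 h, and at 24 h its values in Gch1fl/flTie2cre macrophages lay below those in wild-type. In Gch1fl/flTie2cre macrophages it read 10.11, 9.53 and 9.87 before stimulation, 8.48, 9.37 and 9.61 after 2 h, 13.20, 12.27 and 12.05 after 8 h, and 11.53, 11.32 and 12.02 after 24 h. In wild-type macrophages it read 8.89, 8.39 and 9.80 before stimulation, 8.00, 8.35 and 10.09 after 2 h, 12.50, 12.95 and 12.83 after 8 h, and 13.79, 13.54 and 13.38 after 24 h. The 3 wild-type arrays at 24 h were the highest of the series. The groups did not overlap at that time, as for 11.8% of all genes, while they did at the other times.

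At 8 h against 0 h, Hmox1 rose by 2.67 ± 0.42 in Gch1fl/flTie2cre (6.38-fold, adjusted p = 6.9e-05) and by 3.73 ± 0.42 in wild-type (13.3-fold, adjusted p = 1.5e-06). At 24 h the rise was 1.79 ± 0.42 in Gch1fl/flTie2cre (3.46-fold, adjusted p = 0.00264) and 4.54 ± 0.42 in wild-type (23.3-fold, adjusted p = 1.6e-07). The genotype difference at 24 h was -1.95 ± 0.45, a 3.86-fold lower level in Gch1fl/flTie2cre with an interval of -2.89 to -1.01, and it missed the threshold (limma, adjusted p = 0.0609). It passed with the authors' deposited values (-1.63, adjusted p = 0.0389), with quantile normalisation without background correction (-1.92, adjusted p = 0.0146), with the stricter filter on dim probes (adjusted p = 0.0493), with the set of animals 5 and 6 as a further term (adjusted p = 0.0184), without animal 6 (-2.04, adjusted p = 0.026) and without animals 5 and 6 (-2.24, adjusted p = 0.0104), and did not with cyclic loess (-1.73, adjusted p = 0.118). Over all alternatives the adjusted p ranged between 0.0104 and 0.577, the highest being without animal 3. The difference of responses at 24 h was -2.75 ± 0.60 and did not pass either (adjusted p = 0.161), but passed without animals 5 and 6 (-3.42, adjusted p = 0.0116).

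**Figure D2:**
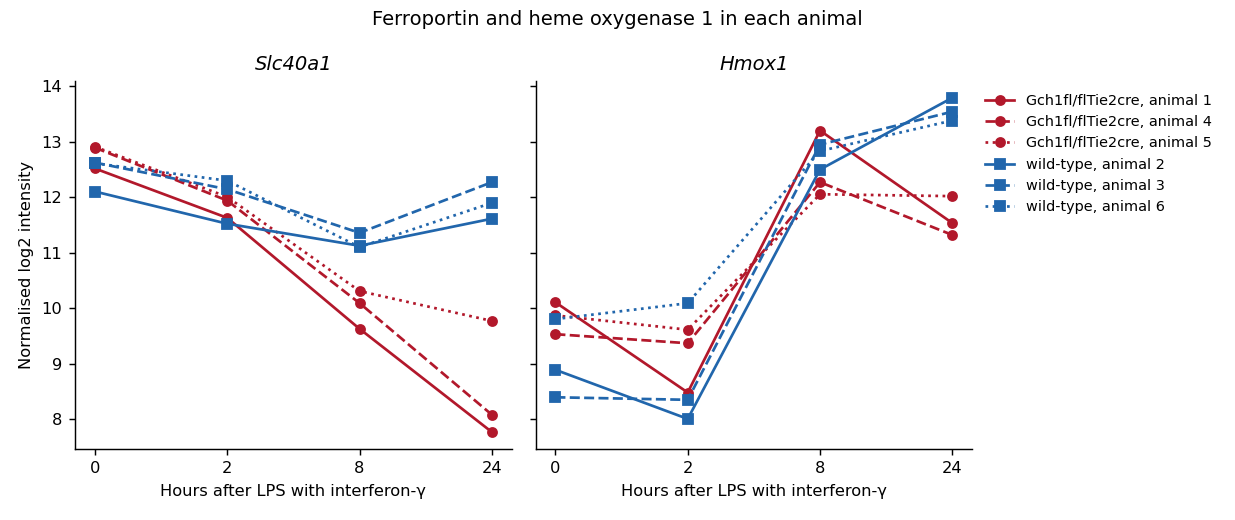
Normalised log2 intensity (y) of Slc40a1 and Hmox1 by hours after LPS with interferon-γ (x), with a line for each animal, red for Gch1fl/flTie2cre and blue for wild-type. From 8 to 24 h both genes moved down in all 3 Gch1fl/flTie2cre animals and up in all 3 wild-type animals, by as little as 0.03 for Hmox1 in animal 5. The 24 h values of Slc40a1 include those it was chosen on.

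Exporter and heme oxygenase were set against each other by animal. Both were called at 8 h in both genotypes in opposite directions, with Slc40a1 lower and Hmox1 higher. From 8 to 24 h Hmox1 moved down by 1.67, 0.95 and 0.03 in Gch1fl/flTie2cre and up by 1.29, 0.59 and 0.55 in wild-type, so that both genes moved the same way in each animal over that step. Taken singly, 1.15% of all genes moved one way in every animal of a genotype and the opposite way in every animal of the other. That is no share for a pair of genes. The 24 h genotype difference of Slc40a1 was known when the genes were chosen, so nothing is read from the shared movement. The fitted Hmox1 differences for this step were -0.88 ± 0.42 in Gch1fl/flTie2cre (adjusted p = 0.113) and 0.81 ± 0.42 in wild-type (adjusted p = 0.155) and did not pass. Without animals 5 and 6 both were called, at -1.31 (adjusted p = 0.00642) and 0.94 (adjusted p = 0.037), and the first was also called on the deposited values (-0.90, adjusted p = 0.0453) and without animal 6 (-0.88, adjusted p = 0.0348). Over the 8 group means their Pearson's r was -0.46, which is a description of 8 points that share animals and arrays.

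Ferritin messages were among the brightest of the array. Fth1, the heavy subunit with the ferroxidase site, ranged from 15.10 to 15.58 over the 24 arrays, and Ftl1, the light subunit, from 15.04 to 15.62, where the highest value of any probe was 15.69. Their 24 h means were 15.46 ± 0.11 for Fth1 and 15.53 ± 0.06 for Ftl1 in Gch1fl/flTie2cre, and 15.29 ± 0.17 and 15.41 ± 0.31 in wild-type (SD, n = 3 each). The genotype difference at 24 h was 0.17 ± 0.13 for Fth1, with an interval of -0.11 to 0.45, and 0.13 ± 0.14 for Ftl1, with an interval of -0.17 to 0.43. Neither gene was called in any comparison by its brightest probe.

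These readings sit at the top of the scale. On the authors' deposited values Fth1 rose by 0.88 ± 0.28 (adjusted p = 0.0291) and Ftl1 by 0.91 ± 0.31 (adjusted p = 0.0408) at 2 h against 0 h in Gch1fl/flTie2cre, where the values here were 0.15 ± 0.13 and 0.16 ± 0.13. On the same deposited values the 24 h genotype differences were 0.32 ± 0.30 and 0.24 ± 0.33. The second Fth1 probe lay between 14.80 and 15.56. The second Ftl1 probe was detected on 3 of 24 arrays, the smallest number the filter let through, and read 5.21 to 7.20. It was called at 24 h against 8 h in wild-type (0.83 ± 0.30, adjusted p = 0.0411), where the bright probe differed by -0.11, and that call was lost on the deposited values (0.30) and with cyclic loess (0.73, adjusted p = 0.0536). Without animals 5 and 6 the second probe was also called at 24 h against 0 h in Gch1fl/flTie2cre (-1.07, adjusted p = 0.00268).

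Tfrc, the receptor that brings in transferrin-bound iron, fell in both genotypes, with a difference of responses of -0.11 ± 0.59 at 24 h. In Gch1fl/flTie2cre macrophages it read 11.48, 11.47 and 11.25 before stimulation, 10.25, 10.47 and 11.30 after 2 h, 9.70, 9.48 and 10.09 after 8 h, and 10.25, 9.52 and 8.53 after 24 h. In wild-type macrophages it read 11.49, 11.12 and 11.66 before stimulation, 10.16, 10.50 and 11.36 after 2 h, 9.79, 9.89 and 9.97 after 8 h, and 10.23, 9.97 and 8.50 after 24 h. Animals 5 and 6 were the 2 highest at 2 h and the 2 lowest at 24 h, in separate genotypes.

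At 8 h against 0 h Tfrc fell by 1.64 ± 0.42 in Gch1fl/flTie2cre (adjusted p = 0.00468) and by 1.54 ± 0.42 in wild-type (adjusted p = 0.00792). Leaving out animal 4 ended the first call (adjusted p = 0.0776) and leaving out animal 2 the second (adjusted p = 0.0544). At 24 h it fell by 1.96 ± 0.42 in Gch1fl/flTie2cre (adjusted p = 0.0012) and by 1.85 ± 0.42 in wild-type (adjusted p = 0.00195). Without animals 5 and 6 the fall was already called at 2 h, at -1.11 in Gch1fl/flTie2cre (adjusted p = 0.00266) and -0.97 in wild-type (adjusted p = 0.00618). The genotype difference at 24 h was -0.13 ± 0.45, with an interval of -1.07 to 0.80. The second probe fell by 2.09 ± 0.46 in Gch1fl/flTie2cre and by 1.97 ± 0.46 in wild-type at 24 h (adjusted p = 0.00147 and 0.00236).

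The ferrireductases of the Steap family turn ferric into ferrous iron before transport. Steap4 was not detected on any array at 0 or 24 h and was detected on all 12 arrays at 2 and 8 h. In Gch1fl/flTie2cre macrophages it read 7.60, 7.68 and 9.09 at 2 h and 7.50, 8.54 and 8.01 at 8 h, against 5.09, 5.46 and 4.92 at 0 h. In wild-type macrophages it read 7.83, 7.35 and 8.62 at 2 h and 7.62, 7.03 and 7.63 at 8 h, against 5.44, 5.27 and 5.10 at 0 h. Against the lowest signal detected on each 0 h array, it was at least 3.17-fold higher at 2 h and at least 2.95-fold higher at 8 h in Gch1fl/flTie2cre (adjusted p = 4.4e-06 and 2.0e-06). In wild-type it was at least 2.82-fold higher at 2 h and at least 1.99-fold higher at 8 h (adjusted p = 1.4e-05 and 5.2e-05). These bounds hold for the background-corrected scale used here. On the deposited values the calls held with smaller log2 differences, 1.22 at 2 h and 1.18 at 8 h in Gch1fl/flTie2cre and 1.09 and 0.83 in wild-type, and with quantile normalisation without background correction they were 1.23 and 1.15 in Gch1fl/flTie2cre and 1.05 and 0.77 in wild-type, all below the bounds.

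At 24 h Steap4 was again not detected, at least 2.90-fold below its 8 h level in Gch1fl/flTie2cre and at least 1.85-fold below it in wild-type (adjusted p = 1.4e-06 and 1.8e-05), with calls that held at -1.25 and -0.95 on the deposited values. Its genotype difference was 0.59 ± 0.35 at 8 h, with an interval of -0.14 to 1.33 (adjusted p = 0.999). Steap3, which reduces iron released from transferrin in endosomes, was dim and was detected on 12 of 24 arrays, with 6.21, 6.40 and 6.30 at 24 h in Gch1fl/flTie2cre, where no array detected it, against 6.45, 6.72 and 7.00 in wild-type, where all 3 did. The groups did not overlap, as for 11.8% of all genes, and the difference of -0.42 ± 0.21 did not pass (adjusted p = 0.582).

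The 250 bases before the start of Steap4, the gene here with the earliest rise, and of Tfrc, which fell, are shown from RefSeq on GRCm38.p6, 5′ to 3′ on the plus strand, at chr5:7960222-7960471 and chr16:32608646-32608895. Capitals mark matches to a κB-type motif, GGGA followed after any 4 bases by CC, and to TTCNNNGAA, a STAT-type motif, both searched on both strands. No 2 matches overlapped.
Steap4: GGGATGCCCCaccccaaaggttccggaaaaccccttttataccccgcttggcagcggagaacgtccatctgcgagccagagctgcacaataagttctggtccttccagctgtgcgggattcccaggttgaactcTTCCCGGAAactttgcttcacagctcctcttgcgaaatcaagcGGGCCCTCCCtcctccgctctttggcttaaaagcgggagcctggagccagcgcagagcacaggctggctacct
Tfrc: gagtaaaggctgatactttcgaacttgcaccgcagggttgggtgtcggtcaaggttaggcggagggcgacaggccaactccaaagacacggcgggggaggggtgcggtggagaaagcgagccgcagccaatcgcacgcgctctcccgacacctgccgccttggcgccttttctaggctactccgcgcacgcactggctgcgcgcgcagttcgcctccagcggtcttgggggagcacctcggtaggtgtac
The Steap4 window held 2 matches to the κB-type motif, starting 250 and 73 bases before the gene's start, and 1 match to TTCNNNGAA, starting 116 bases before it. Of all 32851 windows of this length, 17.6% held the κB-type motif and 7.02% held TTCNNNGAA. The Tfrc window held neither. RefSeq windows were matched for 7 of the 10 genes, which leaves Slc40a1, Hmox1 and Slc11a2 unsearched. Of the 7, Fth1, Ireb2 and Steap3 also held the κB-type motif in at least 1 window, while Steap4 alone held TTCNNNGAA. These 7 genes had 12 windows, so the number of genes with a match cannot be set against the share of windows. The antioxidant response motif TGACNNNGC, present in 10.2% of all windows, had no match in these 7 genes, and sequence farther from the start was not searched. The loop motif of the iron-responsive element had no match either. It was searched on the transcribed strand in windows of 300 bases, 250 of them before the start, and was present in 10.4% of all such windows. The rest of each message was not searched, so the search cannot show whether these messages carry the element.

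Slc11a1, the metal transporter of the phagosome membrane, had 4 tested probes. The brightest lay between 14.79 and 15.61, near the top of the scale, and at 24 h against 8 h it differed by 0.44 ± 0.13 in Gch1fl/flTie2cre and 0.49 ± 0.13 in wild-type (adjusted p = 0.0127 and 0.00732), under the fold threshold. Of the 3 others, at 24 h ILMN_2983516 read 14.70, 14.13 and 14.10 in Gch1fl/flTie2cre and 14.90, 14.96 and 14.20 in wild-type, against 14.27, 14.26 and 13.71 and 14.05, 13.91 and 13.89 at 0 h. All 3 rose at 24 h against 8 h in both genotypes, by 0.64 to 0.85 in Gch1fl/flTie2cre and by 1.14 to 1.30 in wild-type (highest adjusted p = 0.0466). At 24 h against 0 h all 3 rose in wild-type, by 0.74 to 0.82 (highest adjusted p = 0.0296), and 1 of these 3 calls, that of ILMN_2692797, was made on the deposited values. The difference of responses at 24 h was between -0.79 and -0.51 for these probes and did not pass (adjusted p = 0.882 to 0.97), so that a weaker rise in Gch1fl/flTie2cre was not shown. At 8 h against 0 h ILMN_2674884 and ILMN_2983516 fell in Gch1fl/flTie2cre, by 0.82 and 0.62 (adjusted p = 0.0262 and 0.0272).

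Slc11a2, the divalent metal transporter of the endosome, fell late. Its brightest probe read 10.58, 10.33 and 10.25 at 24 h in Gch1fl/flTie2cre, against 11.02, 11.07 and 11.23 at 0 h, a fall of 0.72 ± 0.16 (adjusted p = 0.00175). Without animal 5, or without animals 5 and 6, the fall was 0.58, under the fold threshold. In wild-type it read 10.66, 10.60 and 10.46 at 24 h, against 10.86, 10.79 and 11.10 at 0 h, and did not pass (-0.34, adjusted p = 0.101). Against 8 h it fell by 0.86 ± 0.16 in Gch1fl/flTie2cre (adjusted p = 3.4e-04) and by 0.64 ± 0.16 in wild-type (adjusted p = 0.00481), the second of which was lost without animal 6 (-0.43, adjusted p = 0.0932), without animals 5 and 6 (under the fold threshold) and on the deposited values (-0.58, under the fold threshold). A second probe, ILMN_1243129, read 7.43, 7.40 and 8.97 at 24 h in Gch1fl/flTie2cre and 7.68, 8.02 and 10.28 in wild-type, with animals 5 and 6 as the 2 highest values. It fell by 1.87 ± 0.47 against 0 h in Gch1fl/flTie2cre (adjusted p = 0.00407), and without animals 5 and 6 by 2.26 in Gch1fl/flTie2cre and by 1.63 in wild-type (adjusted p = 2.0e-06 and 3.3e-05).

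Ireb2, which encodes iron regulatory protein 2, differed by probe. The brightest lay between 8.15 and 9.27 and was called in no comparison. The other, ILMN_3161612, rose at 2 h against 0 h in wild-type by 0.70 ± 0.20 (adjusted p = 0.0185) and at 8 h in Gch1fl/flTie2cre by 0.75 ± 0.20 (adjusted p = 0.00563). It then fell at 24 h against 8 h by 1.14 ± 0.20 in Gch1fl/flTie2cre and by 0.81 ± 0.20 in wild-type (adjusted p = 1.7e-04 and 0.004). On the deposited values neither rise was called (0.34, adjusted p = 0.0968, and 0.39, adjusted p = 0.0284, under the fold threshold), and the fall at 24 h against 8 h was 0.65 in Gch1fl/flTie2cre, which was called, and 0.41 in wild-type, which was not. On the scale used here the mean of ILMN_3161612 was also higher at 2 h than at 0 h in Gch1fl/flTie2cre (8.78 against 8.26). The same held at 8 h in wild-type (8.60 against 8.22), so the calls alone do not show a different timing by genotype.

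**Figure D3:**
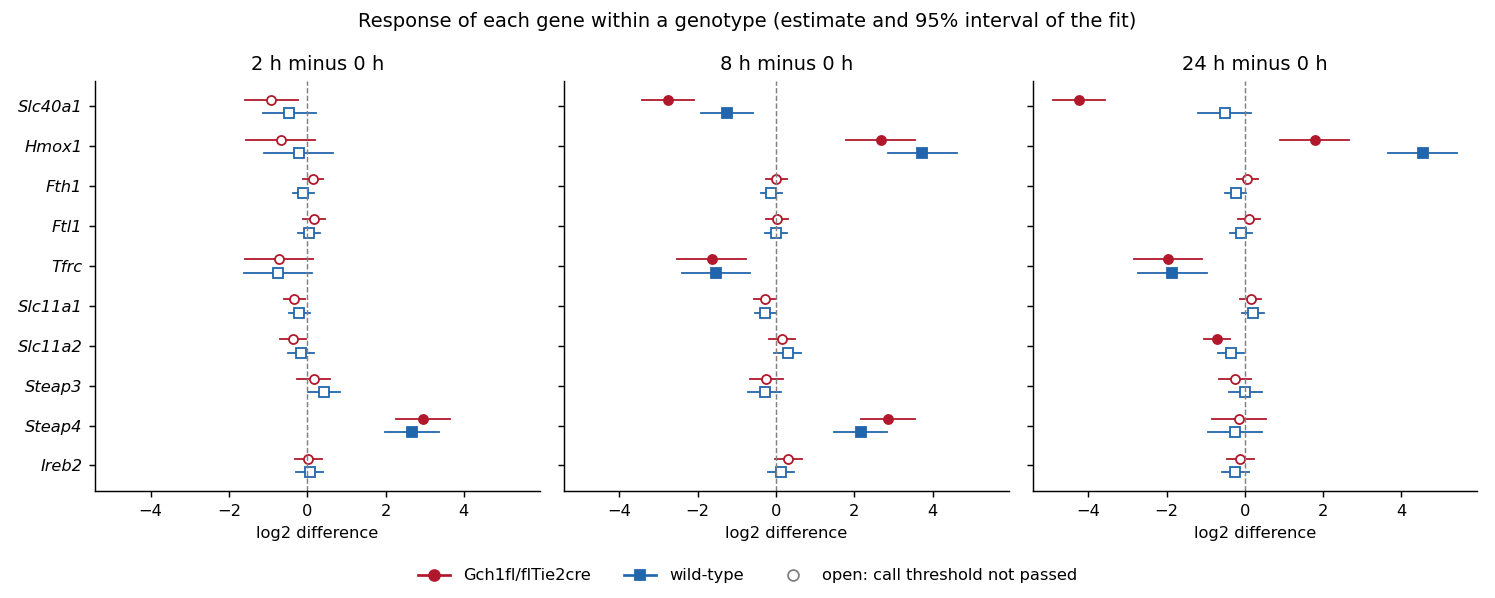
Fitted log2 difference from 0 h (x) of each of the 10 genes (y) at 2, 8 and 24 h, with Gch1fl/flTie2cre (red) above wild-type (blue), 95% intervals as lines and open symbols where the call threshold was not passed. Tfrc moved by nearly the same amount in both genotypes, while at 24 h Slc40a1 and Hmox1 did not. The 24 h values of Slc40a1 are drawn as a description with no test.

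Counts over the 10 genes were set against all 8875 genes tested, where a call needs an adjusted p below 0.05 and a fold over 1.5. At 2 h against 0 h Steap4 alone rose in both genotypes, where 6.31% of all genes rose and 10.7% fell in Gch1fl/flTie2cre, and 6.56% rose and 9.63% fell in wild-type. At 8 h 2 of 10 rose (Hmox1 and Steap4) and 2 of 10 fell (Slc40a1 and Tfrc) in each genotype, where 15.8% of all genes rose and 19.1% fell in Gch1fl/flTie2cre, and 14.6% rose and 16.6% fell in wild-type. At 24 h in Gch1fl/flTie2cre Slc40a1 is left out of the count, and of the 9 other genes Hmox1 rose and 2 fell (Tfrc and Slc11a2), where 17.5% of all genes rose and 15.7% fell. At 24 h in wild-type, again without Slc40a1, Hmox1 rose and Tfrc fell, where 17.6% of all genes rose and 15.1% fell. At 24 h against 8 h none of the 9 genes without Slc40a1 rose by its brightest probe, and 2 of the 9 (Slc11a2 and Steap4) fell in both genotypes. Of all genes 17.8% rose and 13.7% fell in Gch1fl/flTie2cre, and 16.6% rose and 12.4% fell in wild-type. The dimmer Slc11a1 probes rose over this step in both genotypes, and in wild-type also at 24 h against 0 h. The median log2 difference at 24 h against 0 h was -0.11 over the 9 genes in Gch1fl/flTie2cre, beside 0.02 over all genes. Over the same 9 it was -0.24 in wild-type, beside 0.04.

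Between genotypes, none of the 10 genes passed at 0, 2 or 8 h, where 0.0225% of all genes passed at each time. At 24 h Slc40a1 passed, as it was known to when the genes were chosen, and nothing is read from that count. There 0.338% of all genes passed, 6 higher and 24 lower in Gch1fl/flTie2cre, a split that was 44 and 22 on the deposited values. Of the 9 genes other than Slc40a1, Hmox1 had an unadjusted p below 0.05 at 24 h, as had 9.68% of all genes. Arrays of the genotypes did not overlap for 1 of the 10 genes at 0 h (Fth1, lower in Gch1fl/flTie2cre) and 1 at 2 h (Fth1, higher), beside 7.46% and 7.53% of all genes. At 8 h they did not overlap for 2 (Slc40a1 and Ftl1, both lower), beside 9.79%, and at 24 h for Hmox1 and Steap3 besides Slc40a1, all lower, beside 11.8%. The other 8 genes differed between genotypes at 24 h by -0.42 to 0.17, and their intervals reached from -1.07 to 0.80. For the difference of responses at 24 h, 0.0113% of all genes passed, which was Slc40a1 itself. Its known 24 h genotype difference is part of that value, so nothing is read from it. At 2 and 8 h 0% of all genes passed.

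**Figure D4:**
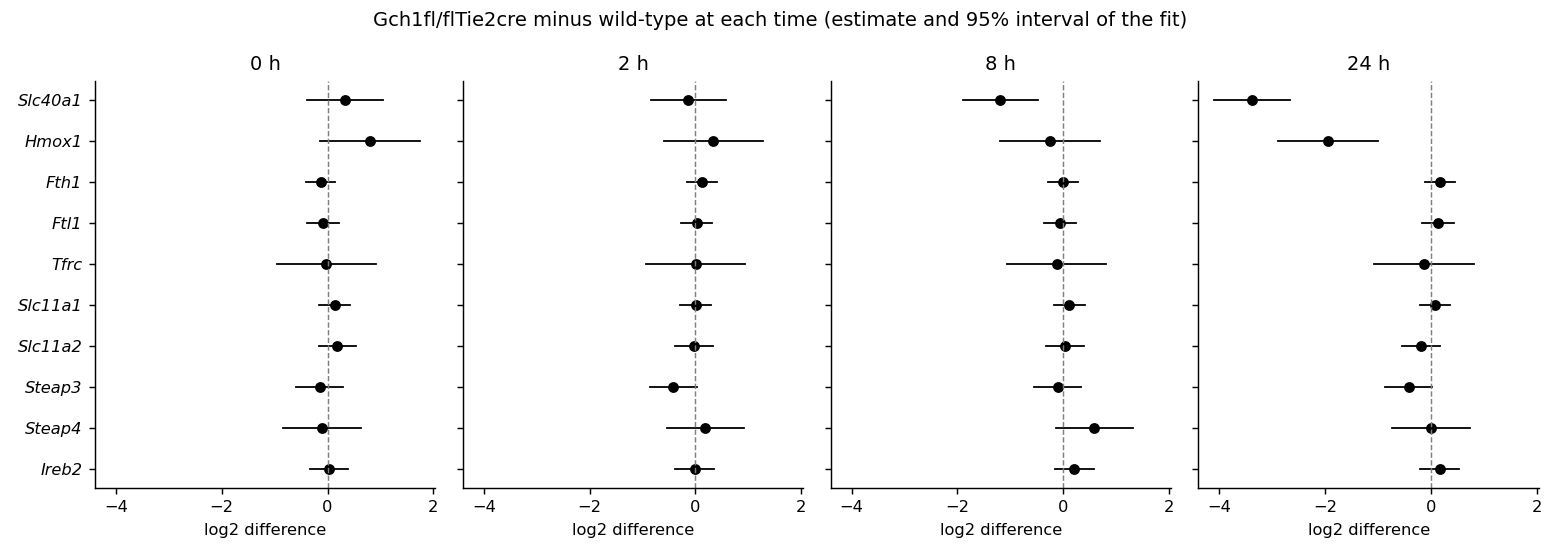
Fitted log2 difference, Gch1fl/flTie2cre minus wild-type (x), of each of the 10 genes (y) at 0, 2, 8 and 24 h, with 95% intervals as lines. Intervals include 0 for all genes at 0 and 2 h, and for all but Slc40a1 at 8 h. At 24 h, leaving Slc40a1 aside, they include 0 for all but Hmox1. The 24 h value of Slc40a1 was known when the genes were chosen and is drawn as a description with no test.

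None of the other genes of iron and heme handling, 42 tested of 57 listed, passed between genotypes at any time. At 24 h 2 of 42 had an unadjusted p below 0.05, where 859 of 8875 genes had. Against 0 h, 11 of 42 rose and 8 fell at 24 h in Gch1fl/flTie2cre, where 17.5% of all genes rose and 15.7% fell. In wild-type 13 rose and 6 fell, where 17.6% rose and 15.1% fell. The list medians were 0.24 and 0.32, beside 0.02 and 0.04 over all genes. At 8 h 9 rose and 10 fell in Gch1fl/flTie2cre, where 15.8% of all genes rose and 19.1% fell. In wild-type 9 rose and 11 fell, where 14.6% rose and 16.6% fell. At 2 h 3 rose and 4 fell in Gch1fl/flTie2cre, where 6.31% of all genes rose and 10.7% fell. In wild-type 4 rose and 6 fell, where 6.56% rose and 9.63% fell. A response particular to this list was not tested.

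Of iron transport genes, Lcn2, a secreted protein that binds bacterial siderophores, rose most at 24 h, by 4.98 ± 0.43 in Gch1fl/flTie2cre and 4.90 ± 0.43 in wild-type (adjusted p = 6.4e-08 and 8.0e-08). Trf, which encodes transferrin, fell by 2.17 ± 0.40 in Gch1fl/flTie2cre and 2.51 ± 0.40 in wild-type (adjusted p = 3.4e-04 and 8.6e-05). Slc39a8, a zinc and iron importer, was not detected at 24 h and was at least 1.49-fold lower than at 0 h in Gch1fl/flTie2cre and at least 1.41-fold lower in wild-type, where 2 of 3 arrays detected it at 0 h (adjusted p = 4.0e-04 and 6.2e-04). Hfe, whose product associates with the transferrin receptor, fell at 8 h by 1.87 ± 0.26 in Gch1fl/flTie2cre and 2.09 ± 0.26 in wild-type. Lcn2 and Hp below are also made by neutrophils: the summed linear level of the 5 tested neutrophil markers of 8 listed was 14900 to 31500 at 8 h and 10100 to 35000 at 24 h in Gch1fl/flTie2cre, against 1130 to 7840 at 0 h, and 17500 to 42900 and 11600 to 30000 in wild-type, against 1330 to 7570. Of these 5 markers S100a8 rose at 8 and 24 h in both genotypes and the other 4 did not pass, and the list's median log2 difference was -0.26 at 8 h and -1.22 at 24 h in Gch1fl/flTie2cre and -0.38 and -1.87 in wild-type. Of the list, which also covers granulocyte precursors, S100a8 was detected on all 24 arrays and Mpo on 0 arrays. The part of such cells in these rises was not tested.

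Among heme genes, Hp, which encodes the hemoglobin-binding haptoglobin, rose at 24 h by 4.82 ± 0.78 in Gch1fl/flTie2cre and 4.32 ± 0.78 in wild-type. Slc48a1, which carries heme out of the phagolysosome, fell at 8 h by 2.15 ± 0.25 in Gch1fl/flTie2cre (adjusted p = 2.2e-06) and by 0.92 ± 0.25 in wild-type (adjusted p = 0.00767), with a difference of responses of -1.23 ± 0.36 that did not pass (adjusted p = 1.00). Flvcr1, a heme exporter, rose at 24 h against 8 h by 2.12 ± 0.25 in Gch1fl/flTie2cre and 2.23 ± 0.25 in wild-type. Of the iron-sulfur cluster genes 4 of 7 rose at 24 h against 8 h in Gch1fl/flTie2cre and 5 of 7 in wild-type, beside 17.8% and 16.6% of all genes, and the others did not pass. Isca1 rose and Glrx5 fell at 8 h against 0 h in both genotypes. Hscb, a co-chaperone of cluster assembly, rose at 24 h against 8 h by 1.62 ± 0.23 in Gch1fl/flTie2cre and 1.41 ± 0.23 in wild-type.

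Of the genes that sense or control iron, Fbxl5, an iron-sensing part of the ligase that degrades iron regulatory proteins, rose at 24 h by 2.30 ± 0.42 in Gch1fl/flTie2cre and 2.19 ± 0.42 in wild-type. Nfe2l2, which encodes the Nrf2 factor known to drive Hmox1, fell at 24 h by 1.62 ± 0.28 in Gch1fl/flTie2cre and 1.55 ± 0.28 in wild-type. Hamp, the gene of hepcidin, was not detected at 0 h and was detected on all 3 arrays of each genotype at 8 h, at least 3.90-fold higher in Gch1fl/flTie2cre and at least 2.42-fold higher in wild-type (adjusted p = 6.1e-04 and 0.00343). Mon1a, which acts in ferroportin trafficking, was detected on all 3 Gch1fl/flTie2cre arrays at 0 h and on 0 at 2 h, at least 1.47-fold lower (adjusted p = 0.00202), and fell by 1.27 ± 0.28 in wild-type, where 1 array still detected it at 2 h (adjusted p = 0.00289).

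**Figure D5:**
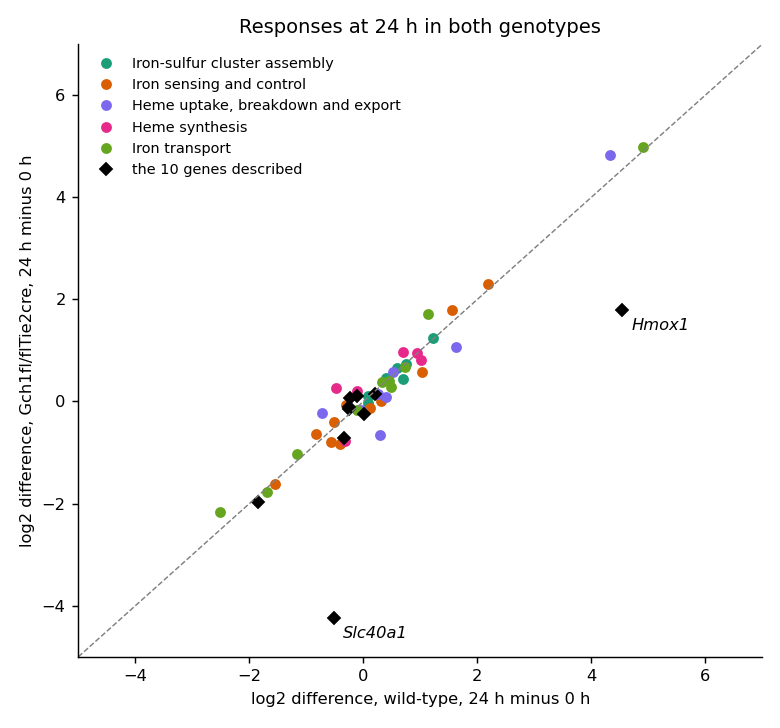
Fitted log2 difference at 24 h against 0 h in Gch1fl/flTie2cre (y) and in wild-type (x) of the 42 other iron and heme genes (circles, coloured by list) and of the 10 genes described (diamonds), with a dashed line at equal response. Hmox1 (1.79 in Gch1fl/flTie2cre and 4.54 in wild-type) and Slc40a1 (-4.24 and -0.52) lie farthest below the line, ahead of Slc48a1, whose difference of responses was -0.94.

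The genes whose 8 group means ran most like those of Slc40a1 were Cat, Gtf2h4, Gpnmb, Ppfibp2 and Ninj1, with Pearson's r of 0.98, 0.96, 0.96, 0.96 and 0.95 over 8 means, among 8874 genes with a median r of -0.01. Cat, which encodes catalase, averaged 11.80, 11.61, 10.54 and 9.99 at 0, 2, 8 and 24 h in Gch1fl/flTie2cre, and 11.74, 11.76, 11.03 and 11.68 in wild-type. Its means spanned 1.82 log2 units, beside 4.24 for Slc40a1. The means of Gpnmb spanned 0.23, between 15.34 and 15.57, near the top of the scale. Of the other 9 iron genes Tfrc was most like Slc40a1 (r = 0.76) and Hmox1 least (r = -0.46), with Fth1 at -0.03 and Ftl1 at -0.15. These correlations are descriptions, since the genes were ranked on the pattern itself and all means share the same arrays.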

How the data were processed

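RNA of 24 macrophage cultures, from 6 animals at 4 times, was hybridised to Illumina MouseWG-6 v2 arrays. The authors read the arrays with GenomeStudio and deposited, for each probe, an intensity, a detection p-value and values on a log2 scale that they had normalised with VSN in limma under R 2.14. Here the intensities of 45281 probes were background corrected from the detection p-values and quantile normalised (neqc, offset 16, limma 3.58.1, R 4.3.3, statmod 1.5.0). The 16498 probes detected at p below 0.01 on at least 3 arrays were fitted with 8 group means and a random block for the animal (consensus correlation 0.124), with Benjamini-Hochberg adjustment across these probes. A call needed an adjusted p below 0.05 and a fold over 1.5. Errors are SE of the fit unless SD is given. The labels name the same animal at every time, so numbers pair arrays across times. Animals were littermates and the study calls its data paired, but the labels used here do not say which animals of the 2 genotypes were matched, so no such pairs were fitted; deviations of the same animal correlated at a median of 0.256.

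A gene was given by its brightest tested probe (14050 tested probes named 1 gene, 8 several and 2440 none). The 10 genes and the gene lists (iron transport, iron sensing and control, heme uptake, breakdown and export, heme synthesis, iron-sulfur cluster assembly, and markers of macrophages, neutrophils, erythroid cells, lymphocytes, fibroblasts and endothelial cells) were chosen with earlier results of these data known. Of the list genes, up to 3 called genes in each direction with the largest change in a comparison could be named, and the 5 genes most like Slc40a1 over group means. Where a probe was not detected in a group, the fold is a bound against the lowest detected signal on each array. The κB-type and STAT-type motifs were added after the values had been seen. On simulated data the genotype comparison at 24 h recovered 88% of log2 changes of 2 and 98% of changes of 3, over 16498 probes. The simulated animals varied independently of each other, while animals 5 and 6 here did not, so these shares may not hold for the real arrays. Alternatives were the deposited values, quantile normalisation without background correction, cyclic loess, other filters, no block, a term for animals 5 and 6, leaving out each animal and other probes, and, chosen after seeing the data, leaving out animals 5 and 6 together. The number of arrays limits the precision.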

Additional observations from a re-analysis of the deposited data

Results flagged for a closer look

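For 3 genes every animal of one genotype moved one way and every animal of the other the opposite way over the same step. Of all 8875 genes 1.15% did so from 8 to 24 h and 0.879% from 0 to 2 h, and the Slc40a1 values include those it was chosen on. From 8 to 24 h Slc40a1 changed by -1.47 ± 0.81 in Gch1fl/flTie2cre and by 0.73 ± 0.22 in wild-type (SD, n = 3 each). Over the same step Hmox1 changed by -0.88 ± 0.82 in Gch1fl/flTie2cre and by 0.81 ± 0.42 in wild-type, with animal 5 at -0.03. From 0 to 2 h Fth1 changed by 0.15 ± 0.04 in Gch1fl/flTie2cre and by -0.10 ± 0.03 in wild-type, at the top of the intensity scale. For the steps from 8 to 24 h the difference between genotypes was not tested. For Fth1 at 2 h the fitted difference of responses was 0.25 ± 0.18 and did not pass (limma, adjusted p = 1.00).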

How the results depend on the processing

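The number of the 10 genes called between genotypes at 24 h was 1, and became 2, with Hmox1 added, on the deposited values, with quantile normalisation alone, under the stricter filter, with a term for animals 5 and 6, without animal 6, and without animals 5 and 6. At 8 h it was 0, and 1 without animals 5 and 6. In Gch1fl/flTie2cre at 2 h against 0 h it was 1, and 4 on the deposited values, 2 with quantile normalisation alone and 3 without animals 5 and 6. In wild-type at 2 h it was 1, and 2 without animals 5 and 6 or by any probe of a gene. At 24 h against 8 h it was 3 in Gch1fl/flTie2cre and 5 by any probe; in wild-type it was 2, and 1 on the deposited values and 5 by any probe. For the difference of responses at 24 h it was 1, and 2 with quantile normalisation alone and without animals 5 and 6. The cause of these changes was not tested. Counts at 24 h, here and below, include Slc40a1. Its 24 h genotype difference was known when the genes were chosen, so nothing is read from its part.

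Leaving out 1 animal at a time gave 1 to 2 genes between genotypes at 24 h, 1 to 2 in Gch1fl/flTie2cre at 2 h, 1 to 3 in wild-type at 24 h against 8 h, and 0 to 1 for the difference of responses at 24 h, with 0 without animal 3 or 4. Without the replicate block of the animal the counts at 24 h between genotypes (1) and in all other comparisons were those of the paired fit. Of 2100 values of the 10 genes under 14 alternatives, 1975 kept their direction and side of the threshold or moved by less than the spread, and none turned its sign after a call. For the other iron and heme genes 1477 of 1724 values did so under the same alternatives, and 247 were weaker. Their calls and bounds are given above for the main processing only. The dim Ftl1 probe read 0.83 at 24 h against 8 h in wild-type (adjusted p = 0.0411), where the bright probe read -0.11. Fth1, Ftl1 and the bright Slc11a1 probe lie near the highest signal, which limits what can be read from them.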
